A study of Glycine max with 6 samples.

Results

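Transcripts of a cytokinin hydroxylase gene (Glyma.20G159600) and of a cytokinin dehydrogenase gene (Glyma.04G055600) were followed in soybean nodules at 2 phosphate levels. They are 2 of the 39712 genes listed in at least 1 library. The pair was chosen by the FPKM values themselves, since the genes moved in opposite directions between LP and HP. Those changes are therefore given as a description, with no test. The rule was a match of the gene ID, and the enzyme names are those of the study. In the part of its supplement at hand, the closest protein given for Glyma.04G055600 is an uncharacterized common bean protein, and Glyma.20G159600 has no entry. The names were not checked against a sequence here.

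The nodules came from YC03-3, a soybean genotype, inoculated with the rhizobium USDA110 and grown in hydroponics. The nutrient solution contained nitrate and ammonium in both treatments and either 500 μM KH2PO4 (HP) or 25 μM KH2PO4 (LP). These units are those of the methods, whereas the sample labels give both concentrations in mM. Nodules over 3 mm were harvested after 25 days. There were 3 libraries per treatment, each made from the pooled nodules of 2 plants, and p-values measure the spread between these pools. Levels are in FPKM, fragment numbers adjusted for the length of a gene and the total of its library. The totals behind the values were 17716117 to 18909026 fragments per library. A nodule library mixes infected cells, uninfected cells, cortex and vascular tissue, so fewer cells of a type and less RNA per cell cannot be told apart. The annotation at hand links no leghemoglobin gene, the usual marker of infected nodule cells, to an ID of the files, so the tissue label was not checked by markers.

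Cytokinins are plant hormones built on adenine. Isopentenyltransferases (IPT) attach the side chain, and cytokinin hydroxylases, cytochrome P450 enzymes of the CYP735A family in Arabidopsis, convert the isopentenyladenine type into the trans-zeatin type. LOG enzymes release the active free base from the nucleotide, and cytokinin dehydrogenases (CKX) remove the side chain and so inactivate the hormone. Active cytokinins bind receptor histidine kinases, which pass phosphate groups through phosphotransfer proteins to response regulators. In legumes, cytokinin signalling in the root cortex drives the cell divisions that form the nodule.

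The hydroxylase gene lies on the plus strand of chromosome 20 of the Wm82.a2.v1 assembly, from 39802732 to 39805447. At HP, its levels were 0.380, 0.0642 and 0 FPKM in replicates 1, 2 and 3. At LP, they were 0.910, 1.13 and 0.670 FPKM. All LP libraries lay above all HP libraries, and HP replicate 1 stood above the other HP libraries. The HP mean was 0.148 ± 0.203 FPKM and the LP mean 0.904 ± 0.232 FPKM (SD over 3 libraries each). The log2 fold change, on the log2(FPKM + 0.1) scale, was 2.31 (standard error 0.58).

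The hydroxylase level rested on few fragments. Whole fragment numbers could be recovered from the steps between FPKM values, and they were 12, 2 and 0 at HP and 28, 37 and 22 at LP. HP replicate 1 thus held 12 of the 14 HP fragments. Its exact 95% counting interval (6.20 to 21.0 fragments) did not meet that of HP replicate 3 (0 to 3.69 fragments). With 3 fragments as the floor of a count of 0, HP replicate 3 lay under 0.0924 FPKM, and the upper end of its two-sided interval was at 0.114 FPKM. Over the groups, 87 LP fragments stood against 14 HP fragments. Scaled to the totals, the LP level was 6.15-fold that at HP (counting interval 3.47 to 11.7). Intervals and floors cover counting error only. Without HP replicate 1 the log2 fold change was 2.94, and without HP replicate 3 it was 1.81.

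The dehydrogenase gene lies on the plus strand of chromosome 4, from 4492866 to 4496940. Its levels were 1.11, 1.63 and 1.13 FPKM at HP and 0.636, 0.264 and 0.238 FPKM at LP, in replicates 1, 2 and 3. Every LP library lay below every HP library, and LP replicate 1 stood above the other LP libraries. The HP mean was 1.29 ± 0.294 FPKM and the LP mean 0.379 ± 0.222 FPKM (SD over 3 libraries each), for a log2 fold change of -1.61 (standard error 0.36). Fragments numbered 45, 65 and 47 at HP and 25, 11 and 10 at LP. Over the groups, 157 against 46 fragments gave a level 3.45-fold higher at HP (counting interval 2.47 to 4.90).

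**Figure D1:**
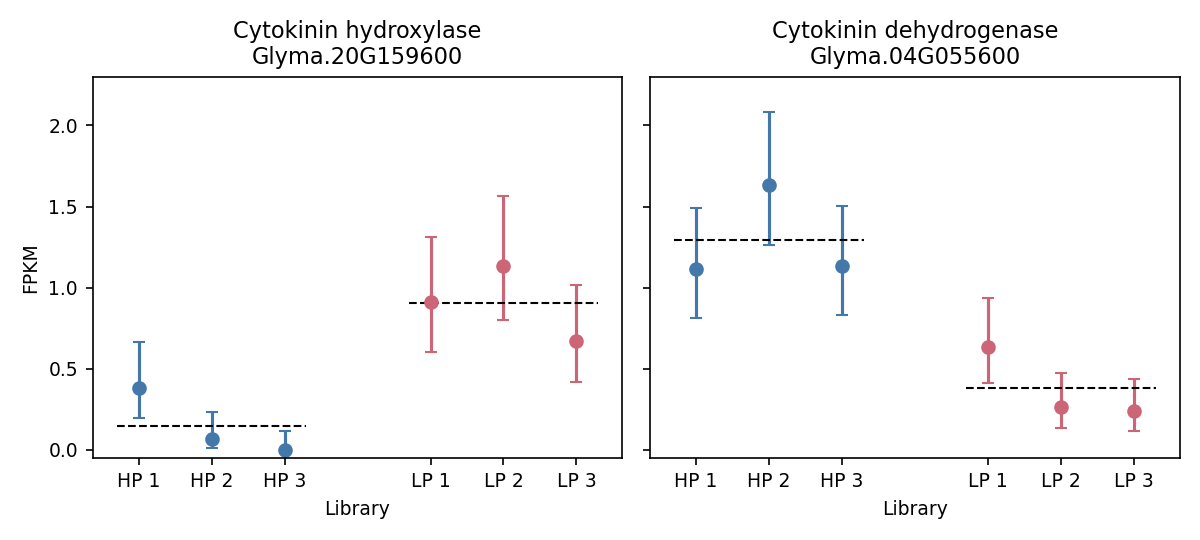
Level in FPKM (y axis) of the cytokinin hydroxylase (left) and dehydrogenase (right) genes in each HP and LP library. Points are libraries, bars are exact 95% counting intervals and dashed lines are means of 3 libraries. The hydroxylase reached 0.380 FPKM at most at HP and 0.670 FPKM at least at LP, while the dehydrogenase was at 1.11 FPKM at least at HP and 0.636 FPKM at most at LP.

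The dehydrogenase had the higher level of the 2 genes in each HP library, and the hydroxylase in each LP library. This comparison uses the values by which the pair was chosen and is given as a description. The hydroxylase level was 0.341, 0.0393 and 0 times that of the dehydrogenase in the HP libraries. The upper counting limit of the ratio in HP replicate 3 was 0.104. In the LP libraries, the ratio was 1.43, 4.30 and 2.81. In LP replicate 1 its counting interval (0.805 to 2.56) included equal levels, but in LP replicates 2 and 3 it lay above 1. The mean log2 ratio, with 0.1 FPKM added to both genes, was -2.79 ± 1.26 in the HP libraries and 1.14 ± 0.654 in the LP libraries (SD, n = 3). The 2 levels added up to 1.13 to 1.70 FPKM at HP and 0.908 to 1.55 FPKM at LP, so the sums of the treatments overlapped.

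**Figure D2:**
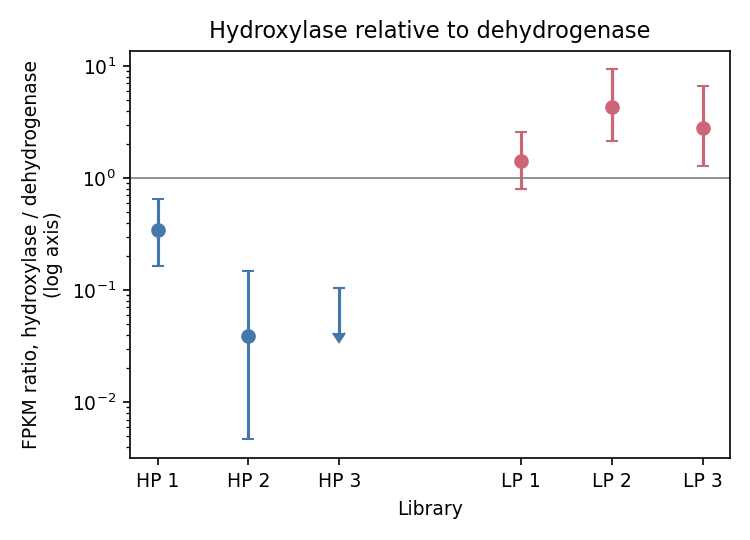
FPKM of the hydroxylase gene divided by that of the dehydrogenase gene (y axis, log scale) in each library. Points are ratios, bars are exact 95% counting intervals, and the arrow in HP replicate 3 starts at its upper limit of 0.104. HP ratios reached 0.341 at most and LP ratios 1.43 at least.

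Both genes were of low abundance in nodules. The hydroxylase lay above 14.5% and 3.17% of the listed genes in HP replicates 1 and 2 and was not listed in HP replicate 3. In the LP libraries, it lay above 23.9%, 28.2% and 21.8% of them. The dehydrogenase lay above 25.7% to 30.8% of the listed genes at HP and 12.0% to 19.8% at LP. For 1968 genes within 1.5-fold of the mean level of the hydroxylase, the median standard error of the log2 fold change was 0.35, below that of the hydroxylase (0.58). For 3568 genes within 1.5-fold of the dehydrogenase, the median standard error was 0.31, also below that of the dehydrogenase (0.36).

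Over all genes, limma on log2(FPKM + 0.1) tested the 31181 genes that reached 0.5 FPKM in 3 libraries or more. Calls required a 2-fold difference or more, with a Benjamini-Hochberg adjusted p no higher than 0.05. This held for 7.73% of the genes tested, with 3.34% higher (1041 genes) and 4.39% lower (1370 genes) at LP. Groups did not overlap for 44.5% of the genes tested, with 33.4% lower and 11.1% higher at LP. The hydroxylase and the dehydrogenase were both called and had groups that did not overlap, but nothing can be read from this, since this contrast chose them. The hydroxylase passed the minimum through the LP libraries alone and could not pass it without any one of them. The median log2 fold change of all genes tested was -0.18. Median-of-ratios scaling took this median to 0.00 and the calls to 1404 higher and 676 lower, quantile normalization gave 1298 higher and 806 lower, and with 1 as the added constant there were 751 higher and 602 lower. The hydroxylase remained higher and the dehydrogenase lower at LP under each of these (2.43 and -1.46 on the log2 scale after median-of-ratios scaling).

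**Figure D3:**
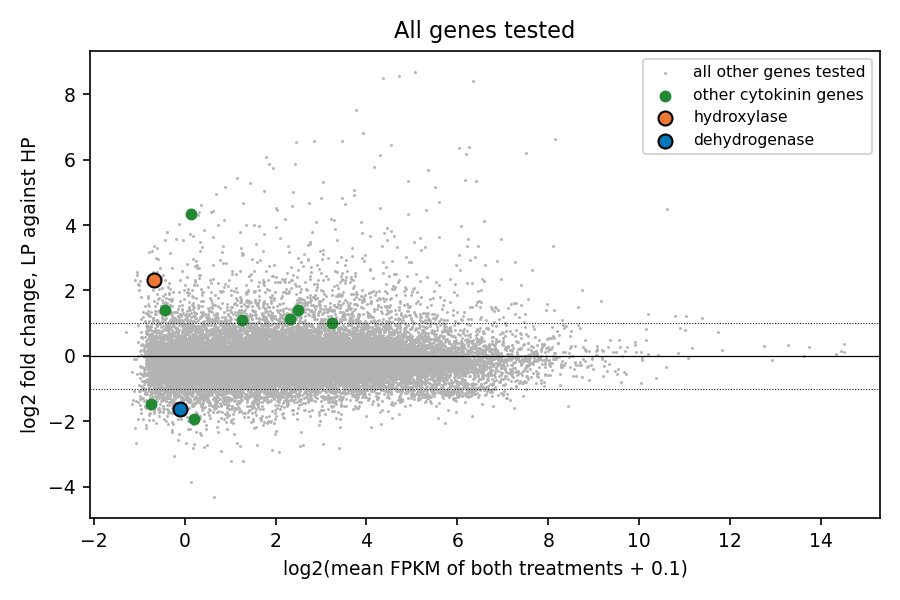
Log2 fold change of LP against HP (y axis) by level, as log2 of the mean FPKM of both treatments plus 0.1 (x axis), for the 31181 genes tested (grey), the hydroxylase (orange), the dehydrogenase (blue) and 8 other cytokinin genes (green). Dotted lines mark 2-fold differences. The hydroxylase is at 2.31 and the dehydrogenase at -1.61, both at the low end of the level axis.

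A reference gene gives another scale. TefS1 (Glyma.17G186600), to which the study related its qRT-PCR values, was at 1025, 958 and 983 FPKM at HP and at 577, 576 and 546 FPKM at LP. Its groups did not overlap, and its log2 fold change was -0.80 (standard error 0.10, limma adjusted p = 0.00146), under the 2-fold threshold. Divided by TefS1, the hydroxylase had a log2 fold change of 2.83 and the dehydrogenase of -0.93, under 2-fold.

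Other genes of the pathway were collected by words in the protein descriptions of the study's supplement, of which 1764 genes were at hand. That supplement holds genes which differed between these same samples. The counts and directions of the lists, and the adjusted p-values of their genes, are therefore not independent evidence. Of 10 lists, 5 held no gene at hand, namely hydroxylation, breakdown, conjugation, transport and receptors. The other lists held 8 genes, all tested, of which 6 were higher and 2 were lower at LP in limma (7.73% of all genes tested were called). Their log2 fold changes had a median of 1.11, beside -0.18 over all genes tested. The supplement was picked for differences in these samples, so nothing can be read from this contrast.

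In cytokinin synthesis, the adenylate isopentenyltransferase 3-like gene Glyma.10G025300, of the family that makes the first intermediate, was at 1.26, 1.78 and 1.11 FPKM at HP and at 2.13, 4.84 and 2.58 FPKM at LP. All LP values lay above all HP values, and LP replicate 2 stood apart from the other LP libraries. Its log2 fold change was 1.09 (standard error 0.32), with a limma adjusted p of 0.0414 in the samples by which the supplement was picked. The call depended on single libraries. Its adjusted p was 0.113 without HP replicate 1, 0.110 without HP replicate 3, 0.106 without LP replicate 2 and 0.0647 without LP replicate 3. The call was also lost with limma-voom on recovered fragments (0.0526) and with eBayes without trend and robust variances (0.0538). With 1 added in place of 0.1, the log2 fold change was 0.77, under 2-fold.

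Genes for LOG enzymes, which release free bases, differed in direction. Glyma.06G025200 (LOG3) was at 2.57, 3.73 and 2.71 FPKM at HP and at 9.97, 6.87 and 7.37 FPKM at LP, a log2 fold change of 1.40 (standard error 0.20, limma adjusted p = 0.00256). Glyma.04G025100 (LOG3-like) rose as well, from an HP mean of 3.08 ± 0.963 FPKM to an LP mean of 6.70 ± 0.627 FPKM (SD, n = 3; limma adjusted p = 0.00779). Its log2 fold change was 1.13 (standard error 0.21), and it was just under 2-fold (0.99) without HP replicate 1. By contrast, Glyma.13G324700 (LOG1-like) fell. Its levels were 1.52, 1.97 and 1.56 FPKM at HP and 0.195, 0.331 and 0.695 FPKM at LP, a log2 fold change of -1.93 (standard error 0.38, limma adjusted p = 0.00964). At HP the 3 LOG genes lay between 1.52 and 4.19 FPKM. At LP, the LOG3 and LOG3-like genes lay at 6.01 FPKM or more and the LOG1-like gene at 0.695 FPKM or less.

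Among signalling genes, Glyma.15G019500 (histidine-containing phosphotransfer protein 4-like), of the family that carries phosphate groups from receptors to response regulators, had no fragment in any HP library. It had 43, 39 and 23 fragments at LP, where its level was 2.01 ± 0.658 FPKM (SD, n = 3). Against a floor of 3 fragments for the HP libraries together, the LP level was 34.6-fold that floor. This value leaves out the counting error at LP and the spread between libraries. The gene passed the minimum of 0.5 FPKM through the LP libraries alone and could not be tested without any one of them. It also comes from a supplement of genes that differed between these samples. Its call (limma adjusted p = 2.48e-04) is therefore not independent evidence.

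Both ARR12-like genes, of the type of response regulators that bind DNA and switch on cytokinin targets in Arabidopsis, were higher at LP. Glyma.15G206200, the most abundant of the 8 genes, was at 6.03, 5.74 and 6.64 FPKM at HP and at 12.5, 13.3 and 11.5 FPKM at LP. Its log2 fold change of 1.01 (standard error 0.11, limma adjusted p = 8.16e-04) lay at the 2-fold threshold. It was below it without HP replicate 1, HP replicate 2 or LP replicate 2 (0.96 at the lowest). Glyma.13G155400 was at 0.471, 0.291 and 0.179 FPKM at HP and at 0.863, 0.773 and 1.26 FPKM at LP (log2 fold change 1.40, standard error 0.36, limma adjusted p = 0.0257). That call was lost without HP replicate 2 (adjusted p = 0.0548) or HP replicate 3 (0.0644) and with the replicate number as a block (0.0530). The gene passed the minimum of 0.5 FPKM through the LP libraries alone and could not be tested without any one of them. Both ARR12-like genes also come from the supplement of genes that differed between these samples, so neither call is independent evidence.

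The CRF3-like gene Glyma.13G040400 was placed among the cytokinin response factors by its description. The study lists this gene under ethylene signalling. It fell from an HP mean of 0.775 ± 0.159 FPKM to an LP mean of 0.223 ± 0.0992 FPKM (SD, n = 3). The log2 fold change of -1.47 had a standard error of 0.36 and a limma adjusted p of 0.0218, and the call was lost without LP replicate 2 (adjusted p = 0.0561) or LP replicate 3 (0.0507). It passed the minimum through the HP libraries alone and could not be tested without any one of these. It also comes from the supplement of genes that differed between these samples, so its call is not independent evidence. The 2 genes that fell had 4 to 51 fragments per library. The 6 that rose had 0 to 695, and of these Glyma.13G155400 had 9 to 64.

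**Figure D4:**
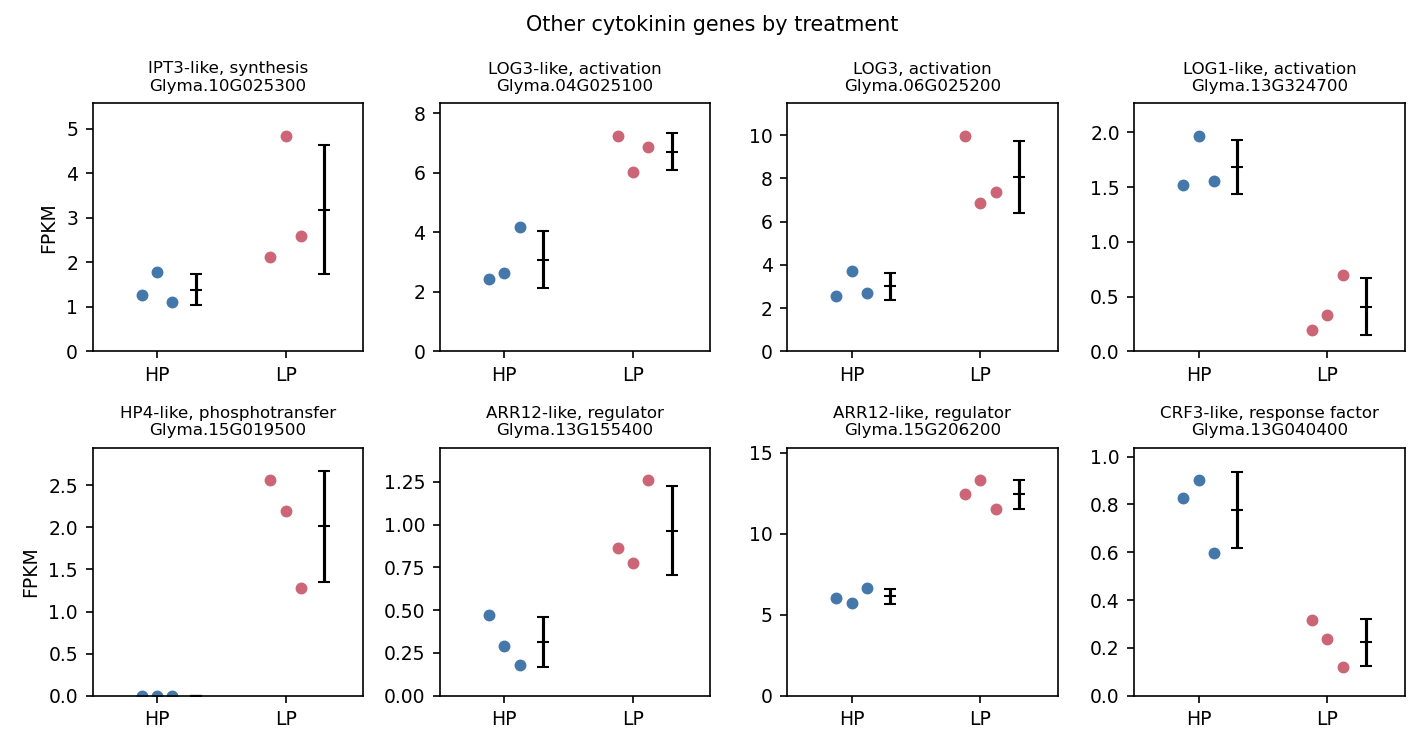
Levels in FPKM (y axis, separate scale for each gene) of 8 other cytokinin genes in HP (blue) and LP (red) libraries. Points are libraries, and black marks are means with SD of 3 libraries. In each panel the HP and LP points do not overlap, as for 44.5% of all genes tested, with 6 genes higher and 2 lower at LP, all from a supplement of genes that differed in these samples.

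Of xylem markers, the 1 gene described in the supplement at hand, the xylem cysteine proteinase 2-like gene Glyma.06G014800, also fell at LP. Its HP mean was 0.852 ± 0.0767 FPKM and its LP mean 0.206 ± 0.0891 FPKM (SD, n = 3; log2 fold change -1.68, standard error 0.33, limma adjusted p = 0.0101). It too comes from genes that differed between these samples, and it passed the minimum through the HP libraries alone, without any one of which it was not tested. Its part in the changes of the cytokinin genes was not tested. No gene at hand was described as a Casparian strip membrane protein, a marker of endodermis.

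Position is a property the choice of genes did not use. The 5 listed genes on either side of each member were compared, none of which overlapped it. The nearest lay 3706 bases from the hydroxylase gene and 5221 bases from the dehydrogenase gene. Of the 10 neighbours of the hydroxylase, all tested, none was higher and 3 were lower at LP in limma, with 4.39% of all genes tested lower. At an unadjusted p under 0.05, none was higher and 6 were lower, with 10.3% of all genes tested higher and 29.4% lower. Limma-voom called none higher and 3 lower, with 4.70% of all genes lower. Their log2 fold changes ran from -1.49 (Glyma.20G159200, standard error 0.09, adjusted p = 4.37e-05) to 0.24, with a median of -0.38. Glyma.20G159200, which has no description at hand, fell from an HP mean of 45.7 ± 1.32 FPKM to an LP mean of 16.2 ± 0.279 FPKM (SD, n = 3). The calls of Glyma.20G160400 (-1.08) and Glyma.20G160500 (-1.02) lay close to 2-fold. Glyma.20G160400 was under 2-fold without LP replicate 3 (-0.97), and Glyma.20G160500 without HP replicate 3 (-0.98) or LP replicate 3 (-0.96). After median-of-ratios scaling or quantile normalization, both were under 2-fold.

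Of 7 tested neighbours of the dehydrogenase, none was called in either direction in limma, with 7.73% of all genes tested called. At an unadjusted p under 0.05, 2 were lower (29.4% over all genes) and none was higher (10.3%). Limma-voom called none of them and 8.03% of all genes. Their log2 fold changes ran from -0.93 to -0.07, with a median of -0.38. The lowest of them was Glyma.04G055900 (standard error 0.18), which was called without LP replicate 1 (-1.04, adjusted p = 0.0146).

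**Figure D5:**
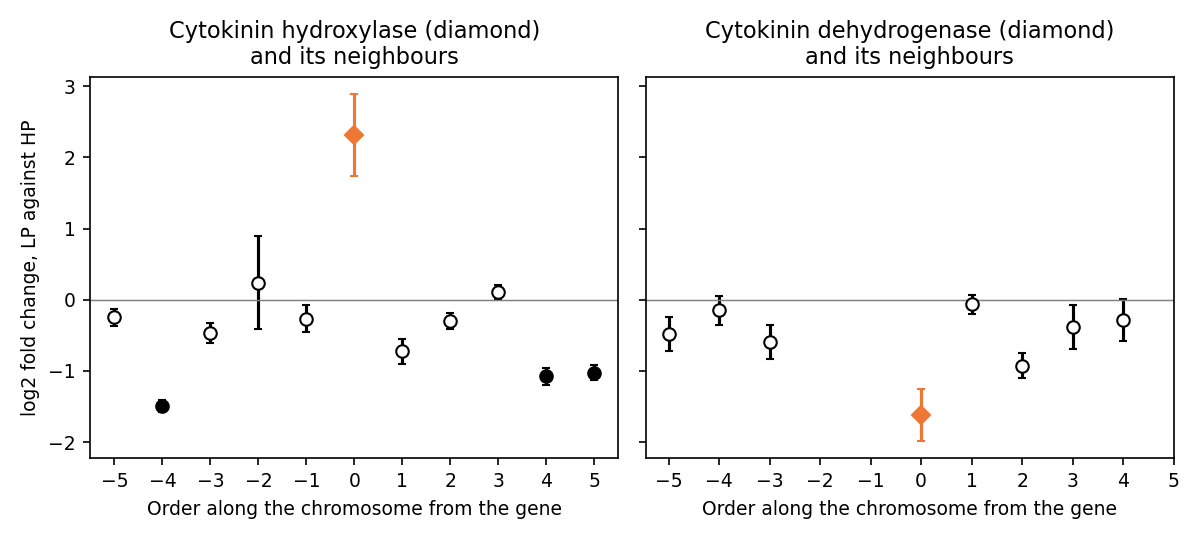
Log2 fold change of LP against HP (y axis) for the hydroxylase (left) and dehydrogenase (right) genes, shown as orange diamonds, and for tested neighbours by their order along the chromosome (x axis). Bars are standard errors and filled circles are called genes. The hydroxylase is at 2.31 among neighbours of 0.24 or less, and the dehydrogenase at -1.61 among neighbours of -0.93 or more.

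Across the 6 libraries, the profile of each gene was compared with 28145 genes of at least 1 FPKM on average. Pearson correlations of log2 values were used, as a description that ignores the size of a change, over points that share libraries and a treatment difference. The profile closest to the hydroxylase was that of Glyma.06G300600 (r = 0.996), followed by Glyma.11G082700 and Glyma.15G090600 (both 0.995). These are the highest values among all genes compared. The HP part of the hydroxylase profile rests on 12, 2 and 0 fragments. Counting intervals of HP replicates 2 and 3 overlapped, and the value of HP replicate 3 is only the added 0.1. Glyma.06G300600 had an HP mean of 2.05 ± 0.421 FPKM and an LP mean of 3.24 ± 0.212 FPKM (SD, n = 3), with HP replicate 1 the highest HP library. The profile closest to the dehydrogenase was that of Glyma.04G172300 (r = 0.999), followed by Glyma.17G142000 and Glyma.10G093300 (both 0.999). Glyma.04G172300 had an HP mean of 7.75 ± 0.492 FPKM and an LP mean of 5.70 ± 0.720 FPKM (SD, n = 3), with LP replicate 1 the highest LP library. None of these 6 genes has a description at hand, and each differed by less than 2-fold between treatments. A correlation above 0.9 was found for 620 genes with the hydroxylase and for 2423 genes with the dehydrogenase, and one below -0.9 for 981 and 354 genes.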

How the data were processed

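RNA of nodules was sequenced in 3 HP and 3 LP libraries. According to the methods of the study, the authors discarded reads of low quality or with adaptors, built the index with Bowtie2 2.2.3, aligned the reads with HISAT2 2.1.0 to Williams82.a2.v1 and estimated abundance with Cufflinks. The authors deposited 1 list of FPKM values per library that leaves out genes at 0, and absent genes were set to 0. The authors tested differences with DESeq2 1.6.3.

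FPKM values were tested here as log2(FPKM + 0.1) in R 4.3.3 by the two-sided moderated test of limma 3.58.1 (intensity trend and robust variances, with statmod 1.5.0 installed), with Benjamini-Hochberg adjustment over 31181 genes. Genes had to reach 0.5 FPKM in 3 or more libraries. Fold changes of low genes are understated by the added 0.1. Limma replaced the count test of the study because the deposited unit is FPKM.

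Relative depths were read from genes under 0.2 FPKM whose values differed only by the library constant. Each gene was then given the smallest whole fragment numbers (relative tolerance 1e-10) that fit a whole model length, which worked for 39711 of 39712 genes. The recovered fragments were 95.5% to 96.9% of the totals. If the true numbers of a gene share a divisor, the recovered ones may be too low. This is not so for the hydroxylase and the dehydrogenase, where a doubled length (3474 and 4440 bases) would exceed the genes (2716 and 4075 bases).

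The code was tested on simulated data, where 199 of 200 genes changed 4-fold were recovered, with 9 false calls among 31224 genes. The simulation gave all genes the same spread beyond counting error, so it does not show how genes of larger spread would fare. Other steps ran in Python 3.11.15 (with scipy 1.17.1, pandas 2.3.3, numpy 2.4.6; figures with matplotlib 3.10.9).

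The members, lists and rule for named genes were chosen with earlier results of these data known. That rule takes both members, every called gene of the pathway lists and the 2 most abundant of each list, TefS1, paralogs, and the 3 genes with the most similar profile. The neighbours were added after the values were seen. No protein or promoter sequences were used here, so paralogs and promoter motifs were not examined. The reference table pairs none of the Glyma IDs with a symbol.

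Alternatives changed the added constant (1 or 0.01), the minimum (none or 1 FPKM), the scaling (median-of-ratios, quantile, and TefS1 for the members) or the variance model (plain eBayes, or weights per array). Others added a replicate block, used limma-voom on recovered fragments, left out single libraries, or called genes without the fold threshold.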

Additional observations from a re-analysis of the deposited data

How the results depend on the processing

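The hydroxylase was higher and the dehydrogenase lower at LP under every alternative run. Since their groups did not overlap, another added constant or leaving out a library could not turn the sign. The hydroxylase missed the minimum of 1 FPKM, and the minimum of 0.5 FPKM without any one LP library. Its values there come from fits to which it was added. The log2 fold change of the hydroxylase (2.31) was 0.74 with 1 added, 3.76 with 0.01 added and 3.52 with limma-voom on recovered fragments. It ranged from 1.81 to 2.94 when each library was left out. That of the dehydrogenase (-1.61) was -0.74 with 1 added, -0.93 when divided by TefS1, and -1.97 to -1.41 when each library was left out. Of the 8 other cytokinin genes, 2 were called with 1 added, and 3 to 6 when each library was left out, where 6 or 7 could be tested. Over all genes, 2411 were called, 1353 with 1 added, 8004 by the adjusted p alone, and 1876 to 2336 when each library was left out. Deviations of same-numbered libraries from the means of their treatments had correlations of 0.170, -0.0198 and -0.153. Those of differently numbered libraries ran from -0.185 to 0.195. No pairing by number was seen, but 3 libraries per treatment cannot exclude it. With the replicate number as a block, 2334 genes over all and 7 of the 8 cytokinin genes were called. At these depths, the fold of the hydroxylase is limited by its 14 HP fragments.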
